A study of Mus musculus with 16 samples.

Results

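The ileal bile acid uptake and FXR axis was followed here through 9 genes, taken by name from the 23299 genes of a table of mouse terminal ileum RNA. They are *Slc10a2*, *Fabp6*, *Slc51a*, *Slc51b*, *Abcc3*, *Abcc2*, *Nr1h4*, *Nr0b2* and *Fgf15*, and every transcript row of a gene was summed. C57BL/6 mice that were Tas1r3+/+ (WT) or Tas1r3-/- (KO, a line that lacks the shared subunit of the sweet and umami taste receptors in every cell) received a normal diet (ND) with plain water or a Western diet (WD), which paired a 60% high-fat pellet with 30% sucrose in the drink, for 10 weeks. The mice were 5 to 6 weeks old when assigned to a diet. The labels list 16 samples, 4 a group (males 1 and 2, females 1 and 2), and 13 libraries were used: 4 WT-ND, 2 KO-ND, 4 WT-WD and 3 KO-WD. Both female columns of KO-ND equal weighted means of the male columns in all 22 transcripts of the 9 genes and were left out, so KO-ND holds males only. The female columns of KO-WD were averaged into 1 library, called KO-WD female here. The labels do not say more about how mice were matched, so p-values measure the spread between these samples.

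Bile acids that reach the terminal ileum are taken up across the brush border, carried through the enterocyte and released to the portal blood, and most of the pool is recovered in this way. Inside the cell they bind the nuclear receptor FXR, which acts with RXR to induce the carrier and the basolateral exporter, the corepressor SHP and the hormone FGF15. FGF15 travels to the liver and lowers bile acid synthesis there. SHP in turn can lower uptake. The terminal ileum is the part of the gut best known for this uptake of bile acids.

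FXR is known to bind inverted repeats of AGGTCA spaced by 1 base. That 13-base motif, AGGTCA, any base, then its reverse complement, reads the same on both strands and was searched in the 250 bases before the RefSeq start (build GRCm38.p6) of the 7 genes with an entry; *Abcc3* and *Fgf15* were not searched. With up to 2 mismatches, 315 of 32851 promoters (0.959%) hold a match, and with up to 3, 3164 (9.63%) do. *Fabp6* holds 2 matches of 2 mismatches each, which 4 of the 32851 promoters do at that limit. *Slc51a* and *Slc51b* hold 1 match each, with 3 mismatches, and *Slc10a2*, *Abcc2*, *Nr1h4* and *Nr0b2* none. The window of *Nr1h4* (chr10:89506659-89506908) lies inside the gene span given below, which runs to 89533585 on the minus strand. The bases before the outermost start of *Nr1h4* were thus not searched. The windows of *Slc10a2*, *Slc51b* and *Abcc2* also reach into the gene spans given below. The promoters of the 3 genes with a match are shown. They are written 5′ to 3′ on the strand of the gene (the minus strand for all 3), with the matches in capitals.
Fabp6 (chr11:43601563-43601812): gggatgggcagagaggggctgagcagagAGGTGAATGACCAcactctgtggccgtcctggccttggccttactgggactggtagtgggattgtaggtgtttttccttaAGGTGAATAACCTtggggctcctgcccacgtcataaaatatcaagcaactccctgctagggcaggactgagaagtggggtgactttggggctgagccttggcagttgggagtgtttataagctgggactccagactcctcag
Slc51b (chr9:65422774-65423023): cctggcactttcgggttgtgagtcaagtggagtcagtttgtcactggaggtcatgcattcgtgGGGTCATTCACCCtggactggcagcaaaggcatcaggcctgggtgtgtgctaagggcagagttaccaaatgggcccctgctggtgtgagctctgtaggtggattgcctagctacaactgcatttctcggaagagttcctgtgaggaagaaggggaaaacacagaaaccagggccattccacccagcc
Slc51a (chr16:32487880-32488129): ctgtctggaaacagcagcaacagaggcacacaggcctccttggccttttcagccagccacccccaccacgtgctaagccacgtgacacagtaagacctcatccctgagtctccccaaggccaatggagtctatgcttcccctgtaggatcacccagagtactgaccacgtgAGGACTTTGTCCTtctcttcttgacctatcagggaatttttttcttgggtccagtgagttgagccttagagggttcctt
The matches of *Fabp6* span bases 222 to 210 and 142 to 130 before the start, that of *Slc51b* bases 187 to 175, and that of *Slc51a* bases 79 to 67. A match is a likeness of letters and does not show binding.

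Levels are given as scaled RPKM, a read number per length and per library that was then scaled between libraries by a trimmed mean of ratios. Among the genes of the table, ordered by mean level over the 13 libraries, *Fabp6* ranked 32nd (mean 2917 scaled RPKM), *Slc51a* 173rd (477) and *Slc51b* 382nd (223). *Slc10a2* followed at 94.3 scaled RPKM, *Nr1h4* at 47.5, *Abcc3* at 17.4, *Fgf15* at 15.2 and *Abcc2* at 8.28. *Nr0b2* was lowest, at a mean of 0.806 scaled RPKM and with an RPKM of at least 1 in 3 libraries. The carrier, the exporter pair and the uptake transporter thus led the axis in level, and the corepressor was near the limit of detection. The ranges of neighbours in this order overlapped over the libraries, for *Slc51a* (104 to 887 scaled RPKM) and *Fabp6* (741 to 8821) only at their ends. The spread within groups was wide for most of the axis. The SD of log2 values within groups was 2.39 for *Fgf15*, above that of 99.9% of the 19042 genes tested, and 0.864 to 1.09 for *Nr0b2*, *Fabp6*, *Slc51b*, *Abcc2*, *Slc10a2* and *Slc51a*, above 93.6% to 97.7% of genes. *Nr1h4* (0.572) and *Abcc3* (0.550) varied less, above 74.0% and 71.3% of genes.

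**Figure D1:**
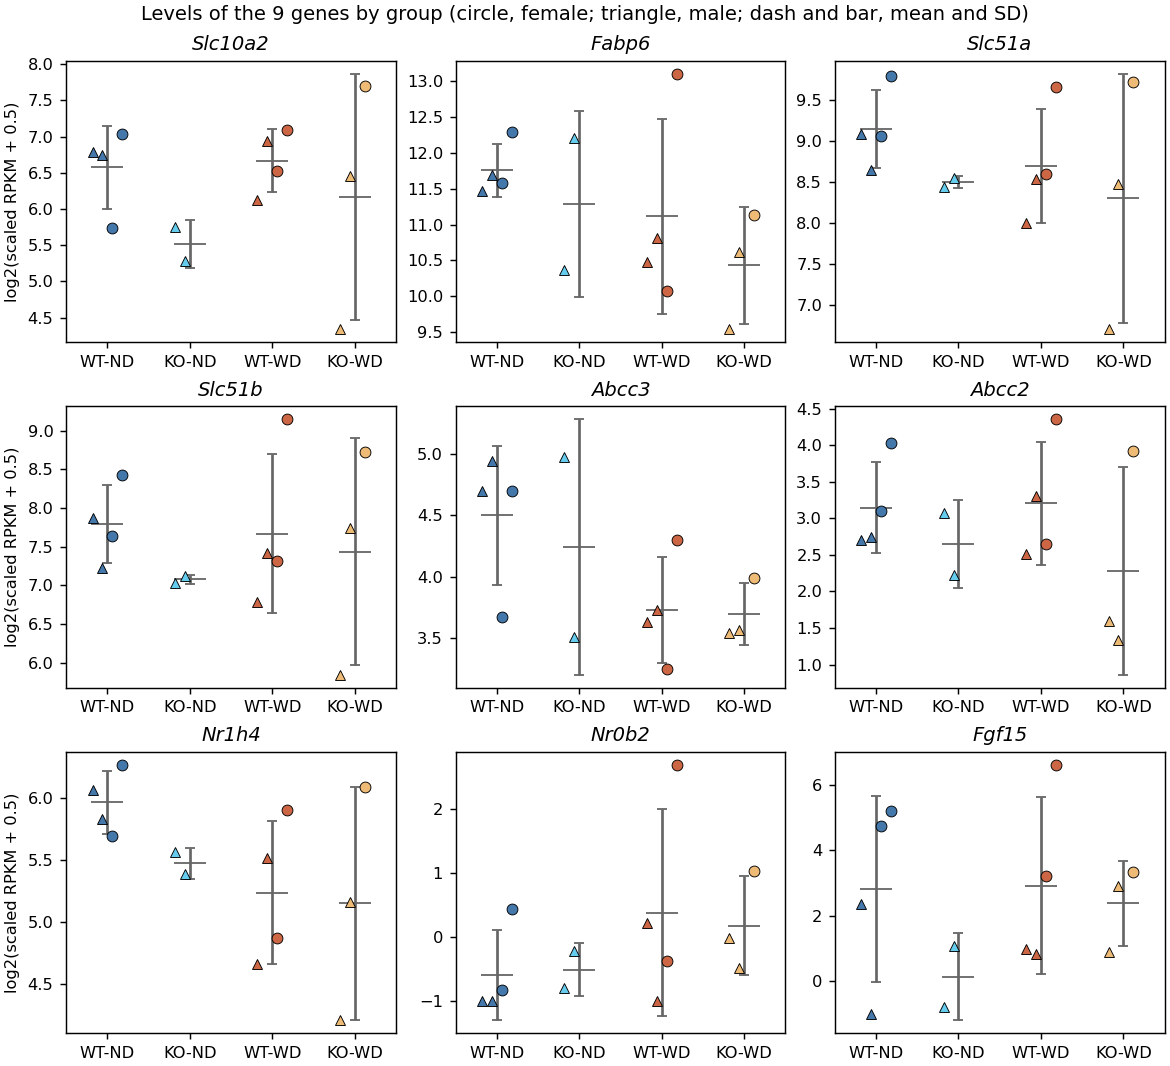
Each panel plots log2(scaled RPKM + 0.5) of a gene (y axis) by group (x axis), with circles for female and triangles for male libraries; the dash and bar are the group mean and SD. The ranges of the groups overlap in most panels, and the female WT libraries sit above the male ones for *Fgf15*.

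The libraries differed in the level of tissue markers. The summed level of 9 epithelial markers (*Lgals4*, *Krt8* and *Krt19* being the most abundant) was 3244 scaled RPKM in KO-WD male 1, and that of 7 smooth muscle markers (led by *Acta2* and *Actg2*) was 5504 there. The other 12 libraries were at 5107 to 11187 and at 976 to 3946. KO-WD male 1 also held the lowest value of 5 of the 9 genes, with a median deviation of -1.45 from the gene means on the log2 scale. WT-WD female 2 held the highest value of 5 genes, with all 9 above their own mean by a median of 1.47, beside the lowest smooth muscle sum, 976 scaled RPKM. As a description over the 13 libraries, the mean log2 level of the epithelial markers had a Pearson r of 0.950 with *Nr1h4*, 0.870 with *Slc51a*, 0.785 with *Slc10a2* and 0.757 with *Slc51b*, against 0.110 with *Nr0b2* and 0.249 with *Fgf15*. In bulk tissue, fewer enterocytes and less RNA per enterocyte cannot be told apart. Markers of the distal ileum (*Cubn*, *Amn*, *Osr2*) summed to 51.9 scaled RPKM in KO-WD male 1 and to 102 to 243 elsewhere, and were thus detected in every library. *Tas1r3* itself was at 1.80 to 2.95 RPKM in WT-ND, at 4.21 to 6.27 in WT-WD and under the worth of 1 read in all 5 KO libraries.

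**Figure D2:**
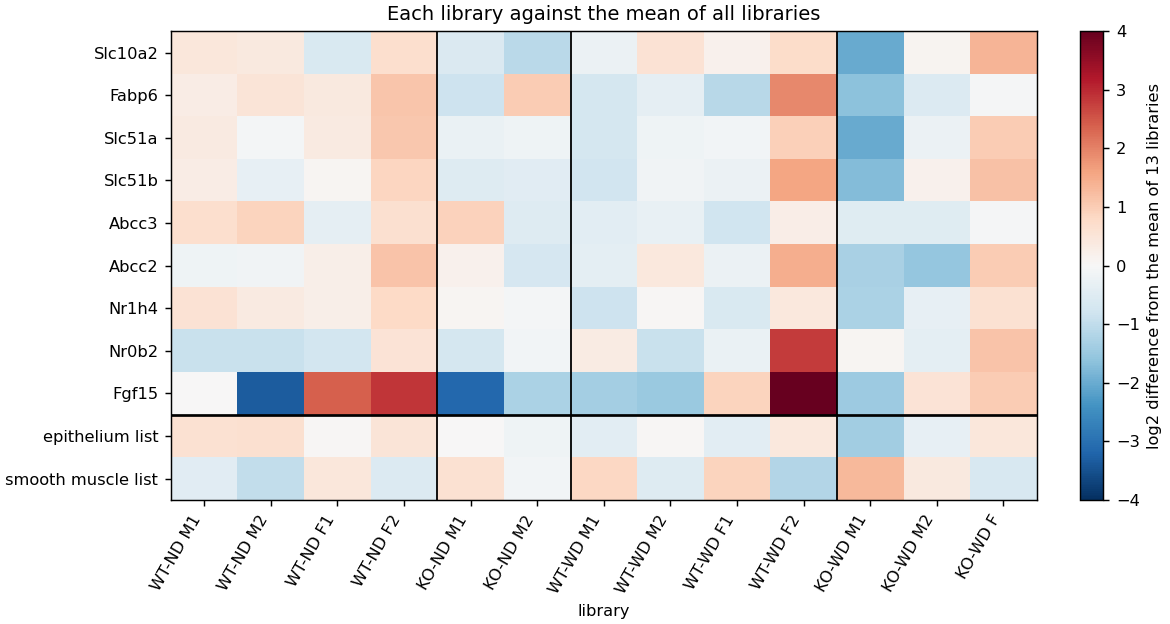
Color gives the log2 difference of each library (x axis, grouped by vertical lines) from the mean of the 13 libraries, for the 9 genes and, below the line, for the mean of the epithelial and smooth muscle marker lists. KO-WD M1 is low for most genes and for the epithelial list (1.40 below its mean), and WT-WD F2 is high for all 9 genes.

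*Slc10a2* (chromosome 8, 5083219 to 5105351, minus strand, 1 transcript) encodes ASBT, the sodium-coupled transporter that takes bile acids up from the lumen. Its level was 110.5, 107, 53.0 and 130 scaled RPKM in WT-ND males 1 and 2 and females 1 and 2, and 53.5 and 38.3 in KO-ND males 1 and 2. On the WD it was 69.1, 122, 91.3 and 136 in WT males 1 and 2 and females 1 and 2, and 19.7, 87.4 and 208 in KO male 1, male 2 and female. Both KO-ND libraries were therefore below 3 of the 4 WT-ND libraries, and WT-ND female 1 lay between them, whereas the KO-WD values spanned the whole WT-WD range and more. The fitted difference of KO from WT on the ND was -1.06 ± 0.68 (log2 fold change ± SE; limma adjusted p = 0.895), with an exact permutation p of 0.133 where 0.0667 is the smallest that 2 against 4 libraries allow. Set against the epithelial markers, the same difference was -0.54 on the log2 scale. In WT mice its mean was 100 ± 33.1 scaled RPKM on the ND and 105 ± 30.1 on the WD (SD, n = 4 each), a log2 fold change of 0.09 (95% confidence interval -1.12 to 1.30).

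*Fabp6* (chromosome 11, 43596049 to 43601540, minus strand, 1 transcript) encodes the ileal bile acid binding protein of the enterocyte cytosol. It stood at 2833, 3300, 3065 and 5007 scaled RPKM in WT-ND males 1 and 2 and females 1 and 2. The KO-ND males were at 1318 and 4717, one under and one inside that range. On the WD, WT males 1 and 2 and WT female 1 lay between 1080 and 1791, below every WT-ND library, while WT-WD female 2 reached 8821, the highest value of the series. KO-WD male 1, male 2 and female were at 741, 1577 and 2248. The log2 fold change of WD against ND in WT mice was -0.64 ± 0.64 (limma adjusted p = 0.653), and it ran from -1.30 without WT-WD female 2 (limma adjusted p = 0.179) to -0.30 without WT-WD female 1 when each library was left out in turn. Between KO and WT on the WD it was -0.68 ± 0.69 (limma adjusted p = 1), with -0.02 without WT-WD female 2 and -1.04 without KO-WD female. Set against the epithelial markers, the differences of *Fabp6* were -0.11 for the diet in WT mice and -0.34 for KO against WT on the WD (log2 scale).

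*Slc51a* (chromosome 16, 32474504 to 32487879, minus strand) and *Slc51b* (chromosome 9, 65412714 to 65422955, minus strand) encode the alpha and beta subunits of the organic solute transporter, which exports bile acids across the basolateral membrane only as a pair. *Slc51a* was at 541, 400, 532 and 887 scaled RPKM in WT-ND males 1 and 2 and females 1 and 2, and at 348 and 374 in the KO-ND males. *Slc51b* was at 234, 149, 199 and 343 in the same WT-ND libraries and at 131 and 139 in the KO-ND males. For both subunits the 2 KO-ND values thus lay just below the lowest WT-ND value, with a log2 fold change of -0.65 ± 0.66 for *Slc51a* and -0.71 ± 0.72 for *Slc51b* (limma adjusted p = 0.906 and 0.903). KO-ND holds males only, and the values were smaller with sex as a covariate (-0.11 and -0.17) and among males alone (-0.33 and -0.44). Without WT-ND female 2 they were -0.41 and -0.48. On the WD the WT libraries ran from 255 to 805 for *Slc51a* (median 379) and from 110 to 568 for *Slc51b* (median 165). KO-WD male 1, male 2 and female were at 104, 356 and 844 for *Slc51a* and at 56.8, 213 and 423 for *Slc51b*. KO-WD male 1 was below the lowest WT-WD value for both, and KO-WD female was above the highest for *Slc51a*.

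The ratio of *Slc51a* to *Slc51b* (scaled RPKM of each) varied far less than either gene. Its log2 SD over the 13 libraries was 0.296, beside 0.821 for *Slc51a* and 0.868 for *Slc51b*. It was 2.56 ± 0.172 in WT-ND (SD, n = 4), 2.67 and 2.70 in the KO-ND libraries, 2.08 ± 0.455 in WT-WD (n = 4) and 1.83 ± 0.162 in KO-WD (n = 3). The ratio was lower on the WD in both genotypes, with no overlap in KO mice (1.67 to 1.99 against 2.67 and 2.70) and a narrow one in WT mice (1.42 to 2.42 against 2.31 to 2.68). Exact permutation tests gave p = 0.0857 in WT mice, where 0.0286 is the smallest possible, and p = 0.1 in KO mice, the smallest possible with 3 against 2. Between genotypes the ratio had an exact permutation p of 0.486 on the WD and 0.533 on the ND. These 4 tests were chosen after the values were seen. Of the RPKM of *Slc51a*, a median of 88.2% came from transcript Slc51a-202, annotated as a target of nonsense-mediated decay, and 2.41% from the protein-coding Slc51a-201. The gene also overlaps *Pcyt1a* on the opposite strand (mean 20.8 scaled RPKM), and *Slc51b* overlaps *Rasl12* (12.8), with no statement in the sources used here on whether reads were counted by strand.

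**Figure D3:**
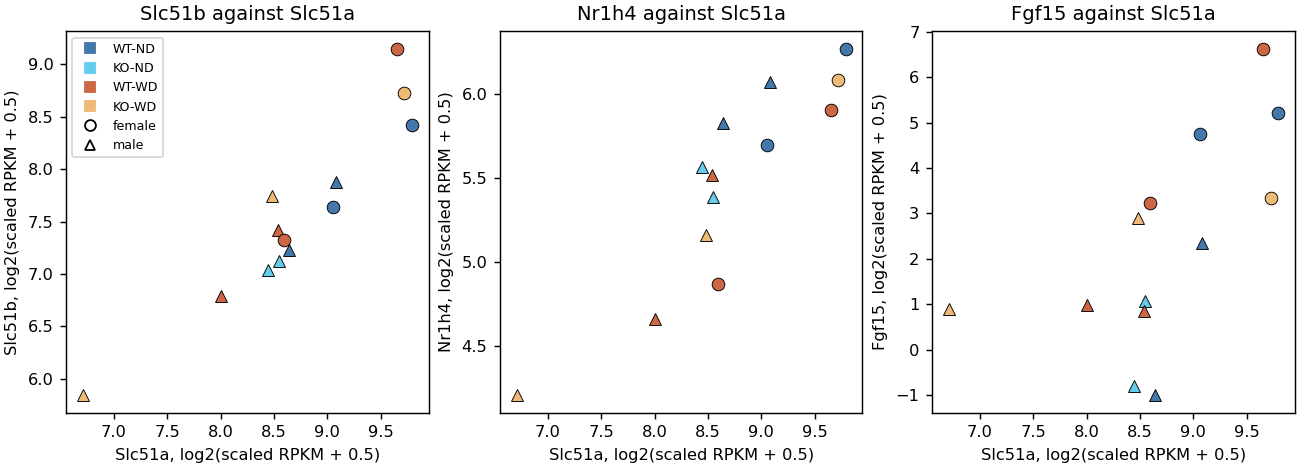
Each panel plots log2(scaled RPKM + 0.5) of a gene (y axis) against that of *Slc51a* (x axis) in the 13 libraries, colored by group, with circles for females and triangles for males. *Slc51b* follows *Slc51a* most tightly (r = 0.940), then *Nr1h4* (r = 0.90), and *Fgf15* is more scattered (r = 0.626).

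*Abcc3* and *Abcc2* encode multidrug resistance proteins 3 and 2, which export conjugated bile acids and other organic anions across the basolateral and the apical membrane. *Abcc3* (chromosome 11, 94343295 to 94392997, minus strand) was at 25.5, 30.2, 12.2 and 25.4 scaled RPKM in WT-ND males 1 and 2 and females 1 and 2. It was at 11.9, 12.8, 9.04 and 19.2 in the matching WT-WD libraries, so that WT-ND female 1 lay among the WT-WD values and the other 3 WT-ND libraries above them. With a log2 fold change of -0.77 ± 0.35 (95% confidence interval -1.53 to -0.01), *Abcc3* in WT mice was the 1 value of the axis with an unadjusted p under 0.05 (limma, p = 0.0466, adjusted p = 0.314), and its exact permutation p was 0.0857. KO-ND males 1 and 2 were at 30.9 and 10.9, and KO-WD male 1, male 2 and female at 11.2, 11.3 and 15.4. Most of its RPKM came from the short noncoding model Abcc3-203 (median share 55.6%), with 19.9% and 9.81% from the protein-coding Abcc3-206 and Abcc3-201. RPKM divides by length, and these models have 567, 5005 and 4999 bases, so the shares are not shares of reads. *Abcc2* (chromosome 19, 43782192 to 43840740, plus strand) was between 6.03 and 15.8 scaled RPKM in WT-ND and between 5.20 and 19.9 in WT-WD. KO-WD male 1 and male 2, at 2.51 and 2.03, were the lowest libraries of the series for this gene, while KO-WD female was at 14.6. The log2 fold change of KO against WT on the WD was -0.92 ± 0.61 (limma adjusted p = 1). It ran from -1.74 without KO-WD female to -0.45 without KO-WD male 2 when each library was left out in turn. Of the RPKM of *Abcc2*, 36.05% to 90.94% (median 58.03%) came from the protein-coding Abcc2-201, and the rest from shorter models with retained introns.

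*Nr1h4* (chromosome 10, 89454234 to 89533585, minus strand) encodes FXR, the receptor for bile acids. WT-ND males 1 and 2 and females 1 and 2 were at 66.5, 56.3, 51.3 and 76.5 scaled RPKM, and the KO-ND males at 46.7 and 41.3, below all of them. On the WD, WT males 1 and 2 and females 1 and 2 were at 24.8, 45.2, 28.7 and 59.3, and KO male 1, male 2 and female at 18.0, 35.3 and 67.3. Only WT-WD female 2 and KO-WD female reached the WT-ND range. Its log2 fold change of WD against ND in WT mice was -0.73 ± 0.36 (limma adjusted p = 0.353, exact permutation p = 0.0857), and -0.49 ± 0.44 for KO against WT on the ND (limma adjusted p = 0.899, exact permutation p = 0.133). The latter was -0.25 with sex as a covariate. Relative to the epithelial markers these differences were -0.19 and 0.03 on the log2 scale. The receptor was read from 3 protein-coding transcripts in changing shares. Nr1h4-203 gave 38.8% to 81.3% of the RPKM (median 57.5%), Nr1h4-202 16.5% to 41.2% (median 31.2%) and Nr1h4-201 2.19% to 26.1% (median 12.1%), with both extremes of Nr1h4-203 and Nr1h4-201 in the KO-WD males.

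**Figure D4:**
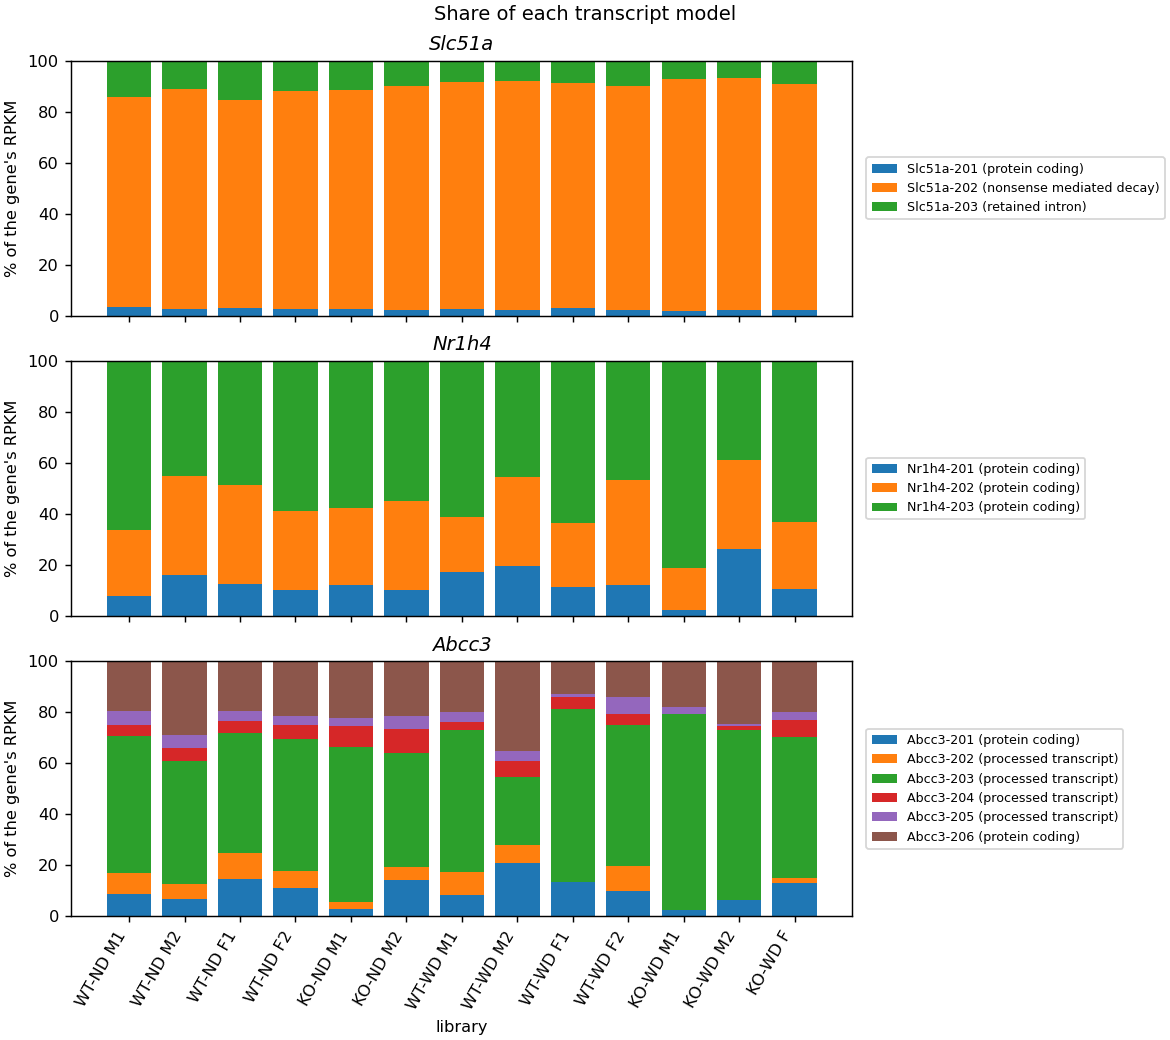
Stacked bars give the share of each transcript model in the RPKM of *Slc51a*, *Nr1h4* and *Abcc3* (y axis, % of the gene's RPKM) for each of the 13 libraries (x axis). The makeup of *Slc51a* is nearly constant (Slc51a-202 at 81.7% to 91.5%), and that of *Nr1h4* and *Abcc3* differs between libraries of one group.

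*Nr0b2* (chromosome 4, 133553376 to 133556536, plus strand, 1 transcript) encodes SHP, a corepressor that FXR induces. It was listed at 0 in WT-ND males 1 and 2 and in WT-WD male 2, where 3 reads, the limit that a count of 0 allows, would be 0.249, 0.322 and 0.209 scaled RPKM. Elsewhere it ran from 0.0653 scaled RPKM (1 read) in WT-ND female 1 to 5.93 (64 reads) in WT-WD female 2. WT-ND female 2 (0.862), KO-WD female (1.54) and WT-WD female 2 stood above the remaining 10 libraries, which were at most 0.663. The 3-read limits cover counting error only, whereas the ± values that follow are SEs from the limma fit. With so few reads a difference between the groups was not detectable: the log2 fold changes on the log2(scaled RPKM + 0.5) scale were 0.98 ± 0.68 for the diet in WT mice (1.69 and 0.72 with pseudocounts of 0.1 and 1, and 0.21 without WT-WD female 2) and 0.09 ± 0.83 for the genotype on the ND.

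*Fgf15* (chromosome 7, 144896531 to 144900953, plus strand) encodes the hormone that signals ileal bile acids to the liver. WT-ND females 1 and 2 were at 26.3 and 36.4 scaled RPKM, WT-ND male 1 was at 4.64, and WT-ND male 2 was listed at 0 (3 reads would be 0.201). WT-WD females 1 and 2 were at 8.92 and 98.3, and WT-WD males 1 and 2 at 1.49 and 1.30. KO-ND males 1 and 2 were at 0.0746 and 1.62, the former from under 3 reads, and KO-WD male 1, male 2 and female at 1.36, 6.97 and 9.65. The groups overlapped in all 4 comparisons of genotype and diet. The widest difference, KO against WT on the ND, had a log2 fold change of -2.68 ± 1.76 (limma adjusted p = 0.895, exact permutation p = 0.333), and it was -3.08 and -2.38 with pseudocounts of 0.1 and 1. KO-ND has no female library, and the value was -0.95 with sex as a covariate and -0.52 among males alone (limma adjusted p = 0.887 for the latter). Leaving out each library in turn gave -3.94 (without WT-ND male 2) to -1.74 (without KO-ND male 1). Its antisense neighbours *Gm26793* and *Gm39119* were at means of 0.152 and 0.408 scaled RPKM.

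In WT mice all 4 female libraries exceeded all 4 male libraries for *Fgf15* (8.92 to 98.3 against 0 to 4.64 scaled RPKM), on each diet as well as in both together. This comparison was made after the values were seen. With diet as a term, the log2 difference of females from males was 4.20 ± 0.84 (limma p = 0.000855, adjusted p = 0.186 over 18576 genes), and the exact permutation p was 0.0286, the smallest that 4 against 4 allow. Every female was above every male for 1.7% of the 19042 genes, and the adjusted p was under 0.05 for 0.0431%. Within one diet, 2 libraries against 2 cannot reach an exact permutation p under 0.333. The epithelial marker sum was 5497 to 11015 scaled RPKM in these females and 5107 to 11187 in the males. Whether tissue makeup enters the *Fgf15* difference was not tested. Female and male ranges overlapped for the other 8 genes, with the next largest differences at 1.20 ± 0.67 for *Nr0b2*, 0.84 ± 0.40 for *Slc51b*, 0.75 ± 0.37 for *Abcc2* and 0.74 ± 0.29 for *Slc51a* on the log2 scale (limma adjusted p = 0.515, 0.450, 0.468 and 0.360). *Slc10a2* had means of 103 scaled RPKM in females and 102 in males, with a difference of -0.02 ± 0.32.

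Set side by side, none of the 9 genes was called in any comparison, a call needing a 2-fold difference with an adjusted p under 0.01 (limma). Few genes of the table were called by this rule: 0.0105% for KO against WT on the WD, 0.0% for KO against WT on the ND, 0.00525% for WD against ND in WT mice, 0.0% for WD against ND in KO mice and 0.0% for the interaction of genotype and diet. At an unadjusted p under 0.05, 0 of the 9 passed for KO against WT on the WD (2.65% of all genes), 0 on the ND (4.73%), 1 for the diet in WT mice (*Abcc3*, 15.5%), 0 for the diet in KO mice (5.49%) and 0 for the interaction (1.43%). The groups failed to overlap for 3 of 9 genes (*Slc51a*, *Slc51b* and *Nr1h4*) for KO against WT on the ND, beside 22.0% of all genes. They overlapped for all 9 on the WD (2.84% of all genes did not), for the diet in WT mice (10.5%) and for the diet in KO mice (20.9%). The shares among the 9 genes were thus near those of the table as a whole. The widths of the intervals bear on this: the SE of a log2 fold change was 0.35 to 1.43 for the diet in WT mice and 0.43 to 1.76 for the genotype on the ND, so that changes of 2-fold in most of these genes were not detectable with these libraries.

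In direction, all 9 genes had fitted values below 0 for KO against WT on the WD (median -0.39 on the log2 scale, beside -0.01 over all genes), but 6 of the 9 were above 0 without KO-WD male 1 (median 0.22) and 5 without WT-WD female 2 (median 0.14). With sex as a covariate 8 were below 0 with a median of -0.052, and without KO-WD female the median was -1.03. For KO against WT on the ND, 8 of 9 were below 0 (median -0.50, beside 0.01 over all genes). As both KO-ND libraries are male, the fit with sex as a covariate is given beside it: 7 were below 0 and the median was -0.17. For the diet in WT mice 4 were above and 5 below 0 (median -0.12, beside 0.02), and for the diet in KO mice 4 and 5 (median -0.19, beside 0.00). Without WT-WD female 2, 8 were below 0 for the diet in WT mice (median -0.77). Without KO-WD male 1, 3 were below 0 for the diet in KO mice (median 0.61), and without KO-WD female 7 were (median -0.69). These comparisons share their control libraries, and they are given for each on its own. The interaction had no member past a threshold, with log2 values from -0.42 for *Abcc2* to 2.14 ± 2.34 for *Fgf15* (0.98 with sex as a covariate).

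**Figure D5:**
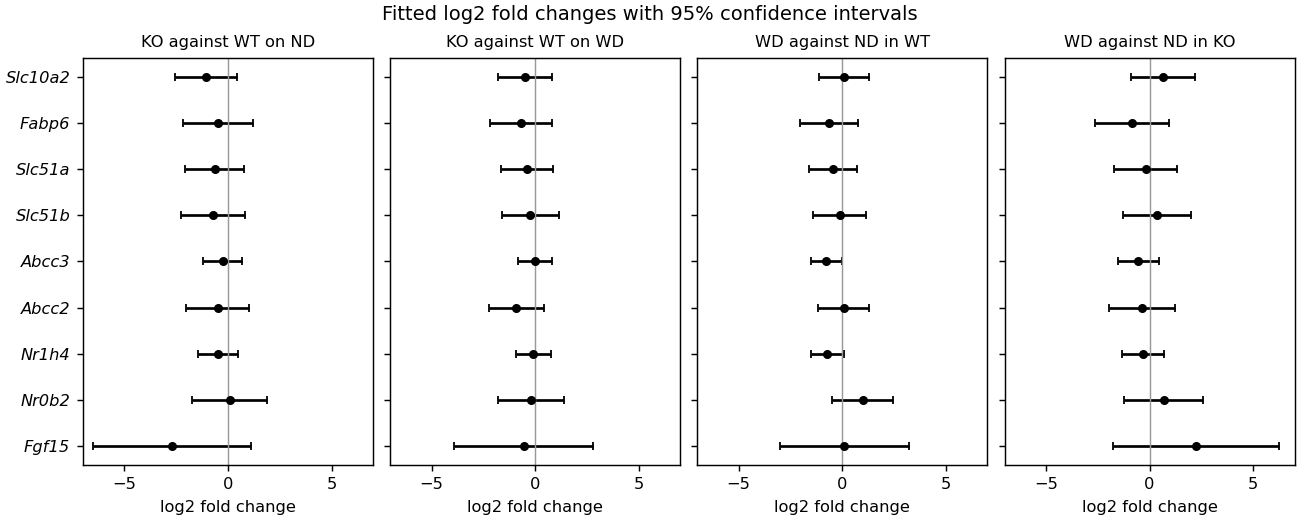
Points are fitted log2 fold changes (x axis) of the 9 genes (y axis) in 4 comparisons, with 95% confidence intervals from limma. Every interval includes 0 except that of *Abcc3* for WD against ND in WT mice (-1.53 to -0.01), and those of *Fgf15* are the widest.

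Across libraries the levels of the axis were correlated. Of the 36 pairs, 34 had a positive Pearson r over the 13 libraries (median 0.597), 17 had a Benjamini-Hochberg adjusted permutation p under 0.05, and 15 of these passed for Spearman's rho as well. The permutations shuffled all 13 libraries without regard to group. No such count was made over pairs of other genes, so whether these counts are particular to the axis was not tested. *Slc51a* and *Slc51b* had r = 0.940 (permutation p = 2e-05, adjusted p = 0.00036; rho = 0.857, p = 0.00039), and r = 0.928 without the 2 libraries farthest from the median of *Slc51a*. The value was 0.989 within the 6 ND libraries and 0.971 within the 7 WD libraries. *Slc51a* and *Nr1h4* had r = 0.90 (permutation p = 1e-05, the smallest possible, adjusted p = 0.00036; rho = 0.896, p = 8e-05) and 0.789 without the 2 farthest libraries. The exporter pair also followed the hormone. *Slc51b* and *Fgf15* had r = 0.739 (permutation p = 0.00367, adjusted p = 0.0132; rho = 0.758, p = 0.00355) and 0.689 without the 2 farthest libraries. *Slc10a2* and *Nr1h4* had r = 0.707 (permutation p = 0.0069, adjusted p = 0.0191; rho = 0.720, p = 0.00767) and 0.517 without the 2 farthest.

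Taking the mean of the epithelial markers from each library changed these relations unequally. As a description, the median r over the 36 pairs went from 0.597 to 0.376. For *Slc51a* with *Slc51b* r went from 0.940 to 0.864. It rose from 0.739 to 0.859 for *Slc51b* with *Fgf15* and from 0.626 to 0.806 for *Slc51a* with *Fgf15*. It fell to 0.473 for *Slc51a* with *Nr1h4* and to -0.18 for *Slc10a2* with *Nr1h4*. The same mean was taken from both genes of a pair, which can itself raise r. Over the whole table of 10896 other genes with a mean RPKM of at least 5, the patterns most like that of *Slc10a2* were those of *Emp1* (r = 0.976), *Akap9* (0.974) and *Sh3gl2* (0.972). For *Slc51a* they were *Krt20* (0.972), a keratin of differentiated epithelium, *Mocos* (0.971) and *Ptprh* (0.968). *Fabp6* was nearest to *Vstm5* (0.897), *Gm17046* (0.893) and *Tmcc3* (0.893), and *Fgf15* to *Sumf1* (0.865), *Cish* (0.863) and *Gm12096* (0.857), all over the 13 libraries and with no test.

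The wider pathway was measured through lists of its other genes. Of 10 genes for bile acid sensing and the partners of FXR (*Vdr*, *Ncor1* and *Rxrb* being the most abundant), none had an adjusted p under 0.05 in any of the 4 comparisons or the interaction (limma). Their counts above and below 0 were 2 and 8 for KO against WT on the WD (median -0.16), 2 and 8 on the ND (median -0.41), 2 and 8 for the diet in WT mice (median -0.30) and 3 and 7 in KO mice (median -0.07), beside medians over all genes of -0.01, 0.01, 0.02 and 0.00. *Rxrb*, a partner of FXR, had -0.41 for the diet in WT mice and -0.61 in KO mice (limma adjusted p = 0.288 and 0.871). Of 8 tested regulators of *Slc10a2*, led by *Hnf4a* and *Cdx2*, 1 was above and 7 below 0 for the diet in WT mice (median -0.53) and 1 and 7 for KO against WT on the ND (median -0.54), again with none past an adjusted p of 0.05. On the WD 1 was above and 7 below 0 for KO against WT (median -0.18), and for the diet in KO mice 4 and 4 (median -0.025). The 1 above on the WD was *Ppara*, a receptor for fatty acids, at 1.72 (limma adjusted p = 0.483). Of 9 other carriers and enzymes of bile acids, led by *Abcb1a*, *Abcg2* and *Sult2b1*, 1 was above and 8 below 0 for KO against WT on the WD (median -0.34), 2 and 7 on the ND (median -0.63), 3 and 6 for the diet in WT mice (median -0.12) and 5 and 4 in KO mice (median 0.0089). Of the enzymes and receptors of the liver arm, 4 of 8 were in the table and 2 were tested. *Fgfr4*, the receptor of FGF15, averaged 3.08 scaled RPKM, *Baat*, which conjugates bile acids, 2.90, and the FGF15 coreceptor *Klb* 0.323, with none of the 3 at 0 in any library.

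Marker lists moved in both directions beside these values. All 9 epithelial markers were below 0 for the diet in WT mice (median -0.49) and in KO mice (median -0.33), and 7 and 8 of them for KO against WT on the WD and the ND (medians -0.22 and -0.44). All 7 smooth muscle markers were above 0 in the same 4 comparisons (medians 0.38, 0.11, 0.32 and 0.62). None of these markers had an adjusted p under 0.05 (limma). The 3 distal ileum markers were below 0 for the genotype on both diets (medians -0.43 on the WD and -0.92 on the ND). Of 6 tested proximal markers, led by *Apoa4* and *Rbp2*, 4 were below 0 on the WD (median -0.72) and 6 on the ND (median -1.42). The colon marker *Retnlb* reached 218 scaled RPKM in 1 library and was 0.731 in another. B cell, leukocyte, adipocyte and liver markers had no gene with an adjusted p under 0.05 in any comparison. How far the tissue makeup enters the values of the 9 genes was not tested.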

How the data were processed

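RNA of the terminal ileum was read on an Ion Proton sequencer. The authors mapped reads to GRCm38 with STAR in Partek Flow and quantified Ensembl transcripts. The deposited values are RPKM per transcript and were made by the authors; no read counts were used. Their column sums were 817011 to 819916 on the ND and 542371 to 685274 on the WD, so the library total may not be the same quantity for both diets. In genes with 1 transcript, 86.9% to 88.2% of values fell on whole reads (within 0.02 reads), which implies a depth of 7003820 to 12384383 reads (median 9220330), and 1 read on 1 kb is 0.0692 to 0.139 RPKM.

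Transcripts were matched by name to GENCODE M21 on GRCm38 (98.2% matched), which gave lengths and coordinates, and summed per gene. The 19042 genes that reached an RPKM of 1 in 2 or more of 13 libraries entered the tests. Libraries were scaled TMM-style, with 30% of ratios and 5% of levels trimmed, and fitted as log2(value + 0.5) by limma 3.58.1 in R 4.3.3 with a mean-variance trend and all 4 groups together, and p-values were adjusted over all genes (Benjamini-Hochberg). A fold change on this scale understates that of low genes. Single genes also had two-sided exact permutation tests, and correlations had 100000 permutations (scipy 1.17.1, Python 3.11.15). Alternatives were other scalings, pseudocounts, filters, covariates and samples. The KO-ND female columns were 0.75 and 0.25 or 0.625 and 0.375 times the male columns. The procedure was tested on simulated data with independent noise for each gene. Changes were added only to genes with a mean RPKM of at least 5, and shifts shared by the genes of a library were not simulated. Promoters are RefSeq's.

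The 9 genes, the lists and the tests were chosen with earlier results of these data known. The 9 genes are named in every comparison. Of each list, genes with an adjusted p under 0.05 were to be named, and otherwise its 1 to 3 most abundant genes. For *Slc10a2*, *Fabp6*, *Fgf15* and *Slc51a*, the 3 most correlated other genes are named. *Rxrb* for the diet, *Ppara*, *Fgfr4*, *Baat*, *Klb*, *Retnlb*, the subunit ratio, the comparison of the sexes and the values relative to the epithelial markers were chosen after values were seen.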

Additional observations from a re-analysis of the deposited data

Results flagged for a closer look

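*Nr0b2* in WT-ND female 2, at 0.862 scaled RPKM (14 reads), stood apart from the other 3 WT-ND libraries, which were at 0, 0 and 0.0653. Its gap to the nearest of them on the log2 scale took up 0.877 of the range of the group, above Dixon's 95% critical value for 4 samples. It was the 1 such value among 18 groups of 4 libraries (9 genes in WT-ND and WT-WD). For normally distributed values, chance alone passes that limit in about 1 of 20 groups. The other 3 WT-ND libraries held 0, 0 and 1 read of *Nr0b2*, so that rate does not apply to this group.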

How the results depend on the processing

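None of the 9 genes was called (2-fold with an adjusted p under 0.01) in any comparison under any alternative run, including each library left out (0 to 0). At an unadjusted p under 0.05 with no minimum fold, 1 was called for the diet in WT mice (*Abcc3*) and 0 elsewhere. Of 45 log2 fold changes, 30 changed sign under at least 1 alternative (83 of 884 values), and none of these was past the threshold under any setting. Without scaling the median of all genes for the diet in WT mice was -0.38, against 0.02 with it, 539 genes of the table were called against 1, and the values of *Abcc3* (-1.22) and *Nr1h4* (-1.18) had adjusted p = 0.0114 and 0.0243 (limma). With all 16 columns as labelled 33 genes were called for the diet in WT mice and 16 in KO mice, against 1 and 0. With sex as a covariate 4 genes were called for the diet in WT mice, and with a replicate block 3. Depth limits *Nr0b2* (0 to 64 reads) and the males' *Fgf15* (from 0 reads up), and 2 to 4 libraries a group limit every comparison.

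The sign changed at these values. Without scaling it was *Slc10a2* -0.37, *Abcc2* -0.38 and *Fgf15* -0.30 for the diet in WT mice and *Slc51b* -0.045 for the diet in KO mice. Pseudocounts of 0.1 and 1 gave *Nr0b2* 0.072 for KO against WT on the WD and *Fgf15* -0.0081 for the diet in WT mice. With sex as a covariate it was *Fgf15* 0.035 for KO against WT on the WD, *Abcc2* 0.079 on the ND, *Slc51b* -0.0045 for the diet in KO mice and *Slc51a* -0.10 for the interaction. Among males only, where *Nr0b2* did not pass the filter, it was *Fgf15* 1.00 for KO against WT on the WD, *Slc10a2* -0.23 for the diet in WT mice, *Slc10a2* -0.12 and *Slc51b* -0.29 for the diet in KO mice and *Slc51a* -0.32 for the interaction. Among WT females only, an alternative chosen after seeing the data, it was *Slc51b* 0.15, *Abcc2* -0.12 and *Fgf15* -0.093 for the diet. All 16 columns as labelled gave *Slc51b* 0.11, *Abcc3* 0.064, *Nr1h4* 0.17 and *Nr0b2* 0.014 for KO against WT on the WD and *Slc51a* 0.18 for the diet in KO mice. The cause was not tested.

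Some same-numbered libraries of different groups deviated together and others did not (16 pairs, r of deviations over genes from -0.202 to 0.568, 7 above 0.1). KO-WD female was counted as female 1. Among same-numbered pairs the highest values were 0.568 and 0.417 for WT-WD with KO-WD males 1 and 2, and 0.472 for WT-ND with WT-WD females 1. The highest value of all pairs, 0.634, was that of WT-WD female 2 with KO-WD female. It counts as a pair of different numbers only because KO-WD female, the mean of females 1 and 2, was counted as female 1. WT-WD female 1 with KO-WD male 1, also of different numbers, was at 0.380. The labels name no pairs, so the numbers were not taken to pair the samples. The replicate block gave *Slc51b* 0.12, *Abcc3* 0.10, *Nr1h4* 0.075, *Nr0b2* 0.36 and *Fgf15* 0.47 for KO against WT on the WD, *Fabp6* 0.0030 and *Abcc2* 0.13 on the ND and *Slc51a* -0.042 for the interaction, and it changed no call of the 9 genes.

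Leaving out each library in turn gave these ranges where a sign changed. For KO against WT on the WD they were *Slc10a2* -1.27 to 0.44, *Slc51a* -1.10 to 0.43, *Slc51b* -0.88 to 0.59, *Abcc3* -0.17 to 0.16, *Nr1h4* -0.55 to 0.41, *Nr0b2* -0.65 to 0.58 and *Fgf15* -1.22 to 0.69. For KO against WT on the ND they were *Fabp6* -1.38 to 0.45, *Abcc3* -0.99 to 0.48 and *Nr0b2* -0.20 to 0.43. For the diet in WT mice they were *Slc10a2* -0.19 to 0.28, *Slc51b* -0.62 to 0.18, *Abcc2* -0.33 to 0.35 and *Fgf15* -1.18 to 0.88. For the diet in KO mice they were *Slc10a2* -0.12 to 1.57, *Fabp6* -1.77 to 0.067, *Slc51a* -0.90 to 0.61, *Slc51b* -0.29 to 1.16, *Abcc3* -1.27 to 0.19, *Abcc2* -1.19 to 0.10 and *Nr1h4* -0.79 to 0.15. For the interaction they were *Slc10a2* -0.21 to 1.48, *Fabp6* -1.13 to 0.71, *Slc51a* -0.46 to 1.06, *Slc51b* -0.16 to 1.28, *Abcc3* -0.50 to 0.96, *Abcc2* -1.24 to 0.047, *Nr1h4* -0.062 to 0.88 and *Nr0b2* -0.74 to 0.48. Where this left KO-ND with 1 library, that library was assumed to vary like the other groups.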
